A study of Mus musculus with 8 samples.

Results

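Runx1, Runx2 and Runx3, the DNA-binding members of the Runx family of transcription factors, and Cbfb, the subunit that all of them share, were followed in dorsal root ganglia (DRG) of E18.5 mouse embryos. The members were chosen by name, and these 4 genes are 4 of the 55414 listed for each library. Bulk RNA-seq was performed on 4 libraries of AdvillinCre/+;Rosa26Dach1/+ embryos (AD1 OE) and 4 libraries of Advillin+/+;Rosa26Dach1/+ embryos (Control). All embryos carried 1 Rosa26 allele from which Dach1 and EGFP are transcribed after Cre removes a stop cassette, and the mice with this allele were of mixed C57Bl/6J and CD1 background. Only the AD1 OE embryos carried Cre, inserted at Advillin, a gene active in somatosensory neurons, so the Controls do not account for the Cre insertion itself. Per the study, Dach1 is first restricted normally in AD1 OE ganglia and is switched on in all sensory neurons later, and the pups die around birth. The comparison therefore asks whether late, neuron-wide Dach1 changes the transcripts of the Runx factors.

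Runx proteins bind DNA through the Runt domain, and each pairs with Cbfb, which raises their affinity for DNA and carries no DNA-binding domain of its own. In somatosensory neurons, Runx1 is required for the non-peptidergic nociceptor fate, including the receptors for itch and cold, and holds back genes of the peptidergic fate, whereas Runx3 is required for proprioceptors, where it represses the receptor TrkB. Runx2 is the master regulator of osteoblasts and is best known from bone and cartilage.

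The libraries held 22339059 to 44025625 counts assigned to genes. As a check of the labels, Dach1 was at 95.9 ± 5.28 CPM (counts scaled to the size of each library, with TMM factors) in AD1 OE and at 32.6 ± 1.64 CPM in Control (SD, n = 4 each), and Avil, the gene that the Cre replaces on 1 allele, was at 463.6 ± 12.0 and 891.8 ± 35.1 CPM. The ganglia were taken whole, with their glia and other cells, so fewer cells of a type and less RNA per cell cannot be told apart in any value below. The 8 neuronal markers summed to 11782 to 12605 CPM in AD1 OE and to 12297 to 12872 CPM in Control. The labels do not say whether replicates came from separate embryos or pools, and the p-values measure only the spread between these samples. They give no sex either, but Xist was high in AD1 OE replicate 3 and Control replicates 1, 2 and 3, and Y-linked genes in the other 4 libraries. In what follows a gene was called where its adjusted p was under 0.005 and its absolute log2 fold change over 0.25 by the quasi-likelihood test of edgeR with Benjamini-Hochberg adjustment over 17721 tested genes. The share called was 2.57%, made up of 1.78% with a lower and 0.784% with a higher level in AD1 OE.

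The 3 Runx genes have a sequence in common near a transcript start, and it is shown here because it holds the Runx factors' own binding motif. Each stretch is given 5′ to 3′ on the strand of its gene, from the RefSeq promoter windows (GRCm38.p6, 250 bases before to 50 bases after a transcript start), with the motif ACCACA in capitals.
Runx1, chr16:92826025-92826054, minus strand: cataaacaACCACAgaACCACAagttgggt
Runx2, chr17:44814583-44814612, minus strand: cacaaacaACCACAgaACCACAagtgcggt
Runx3, chr4:135120503-135120532, plus strand: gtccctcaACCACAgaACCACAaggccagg

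The stretches share the 18 bases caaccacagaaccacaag, which hold the motif a pair of times, 2 bases apart. Counted from the transcript start, the motifs of this core began at +29 and +37 in Runx1 and at +24 and +32 in Runx2, just downstream of the start, and at -134 and -126 in Runx3, upstream of it. Runx2 had a further motif at -80. The 18 bases were found in 4 of the 32851 windows, those of Runx1, Runx2 and Runx3 and that of Gm16225, which overlaps the Runx3 window on the opposite strand. For comparison, ACCACA or its reverse complement TGTGGT occurred in 16.8% of all windows, and 1.81% held it 2 or more times. Runx1 and Runx3 each had 2 windows, and the core lay in the upstream of these. The single Cbfb window held 0 motifs. A match of letters is a description and says nothing of binding, and because reads were summed over each gene, the alternative starts of a Runx gene cannot be told apart in the levels given here.

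Transcripts of all 4 members were detected in every library, and in none of the 4 did AD1 OE differ from Control beyond the spread between libraries. Called members numbered 0 of 4 by edgeR and 0 of 4 by DESeq2, and 0 of 4 had an unadjusted p under 0.05. Over all 17721 tested genes, 2.57% were called by edgeR, 655 genes by DESeq2, and 3296 had an unadjusted p under 0.05. At an adjusted p of 0.05 with no limit on the fold change, 6.55% passed. Beside these shares, 0 of 4 does not set the members apart from other genes. The AD1 OE and Control ranges overlapped for each member, whereas they did not overlap for 13.0% of tested genes. A p that misses the threshold does not show equal levels, and the intervals given for each gene state which differences these 8 libraries leave possible.

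Runx1 (ENSMUSG00000022952, chromosome 16), the determinant of non-peptidergic nociceptors, was at 81.4, 77.9, 77.5 and 76.1 CPM in AD1 OE replicates 1 to 4 and at 81.1, 80.7, 82.9 and 80.5 CPM in Control replicates 1 to 4. Replicates 2, 3 and 4 of AD1 OE lay below all Controls, and replicate 1 lay within their range. The means were 78.2 ± 2.24 and 81.3 ± 1.06 CPM, a log2 fold change of -0.06 (SE 0.03). AD1 OE was thus at 96.2% of Control, with a 95% interval of 91.3% to 101% and an adjusted p of 0.436 by edgeR's quasi-likelihood test. Each library held 1748 to 3599 Runx1 counts. An antisense gene, Gm26626, overlaps 0.881% of the Runx1 exons and had 2 to 13 counts per library.

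Runx3 (ENSMUSG00000070691, chromosome 4), the determinant of proprioceptors, was at 12.0, 12.3, 12.0 and 11.1 CPM in AD1 OE and at 11.5, 12.2, 11.9 and 14.1 CPM in Control. Control replicate 4 stood above all other libraries, and the rest of both groups lay between 11.1 and 12.3 CPM. The means were 11.9 ± 0.538 and 12.4 ± 1.16 CPM, a log2 fold change of -0.07 (SE 0.08) with an adjusted p of 0.664 by edgeR. AD1 OE was at 94.9% of Control (95% interval 84.6% to 107%), from 256 to 529 counts per library. Without Control replicate 4 the log2 fold change was -0.0026.

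Cbfb (ENSMUSG00000031885, chromosome 8), the shared subunit, was at 204.4, 217.5, 206.4 and 204.2 CPM in AD1 OE and at 203.9, 205.8, 214.2 and 213.3 CPM in Control. Highest of the 8 libraries was AD1 OE replicate 2, and the lowest was Control replicate 1. The log2 fold change was -0.01 (SE 0.035, adjusted p = 0.931 by edgeR), and its sign turned without scaling for library composition, where it was 0.0092. AD1 OE was at 99.4% of Control. With 4532 to 9041 counts per library, the 95% interval of the log2 fold change ran from -0.09 to 0.07.

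Runx2 (ENSMUSG00000039153, chromosome 17), the regulator of osteoblasts, was at 4.14, 4.14, 5.81 and 6.01 CPM in AD1 OE and at 3.78, 3.27, 4.05 and 5.82 CPM in Control. AD1 OE replicates 3 and 4 and Control replicate 4 were high, and the other 5 libraries lay at 4.14 CPM or below. The means were 5.03 ± 1.03 and 4.23 ± 1.11 CPM. With 84 to 206 counts per library, Runx2 had the widest interval of the members, from 88.5% to 157% of Control around an estimate of 118%. Its log2 fold change was 0.24 (SE 0.19), with an adjusted p of 0.561 by edgeR. It ranged from 0.1235 to 0.4453 without 1 library, highest without Control replicate 4, and was 0.1527 with the sex score in the fit. The antisense gene Runx2os1 overlaps 5.87% of its exons and had 0 to 5 counts per library.

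**Figure D1:**
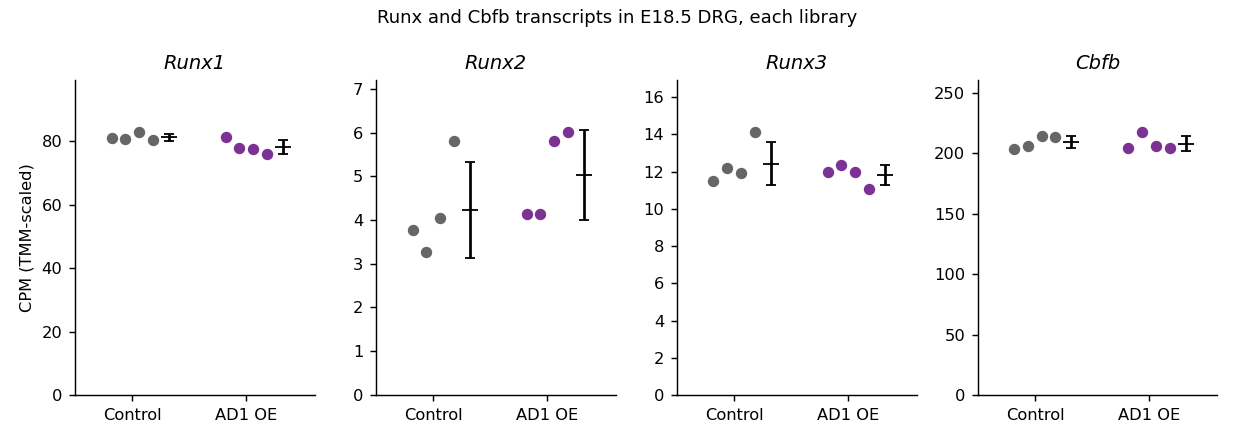
CPM (TMM-scaled) of Runx1, Runx2, Runx3 and Cbfb in each library, 1 panel per gene with its own axis from 0, with Control in grey, AD1 OE in purple and group means as lines with SD bars (n = 4 each). The groups overlap in every panel, Control replicate 4 is the high Runx3 point at 14.1 CPM, and Runx2 spreads over 3.27 to 6.01 CPM.

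Levels were compared between the members only per length, as CPM per kilobase of annotated exon. Cbfb was the most abundant, at 59.8 ± 1.82 in AD1 OE and 60.15 ± 1.499 in Control. Runx1 followed at 6.50 ± 0.187 and 6.76 ± 0.088, Runx3 at 2.37 ± 0.108 and 2.49 ± 0.231, and Runx2 at 0.569 ± 0.116 and 0.479 ± 0.125. The order Cbfb, Runx1, Runx3, Runx2 held in each of the 8 libraries, and no neighbours in it overlapped. The annotated exon lengths were 3480, 12025, 5003 and 8837 bases, and a gene that uses only some of its annotated exons would have a higher level than given here.

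**Figure D2:**
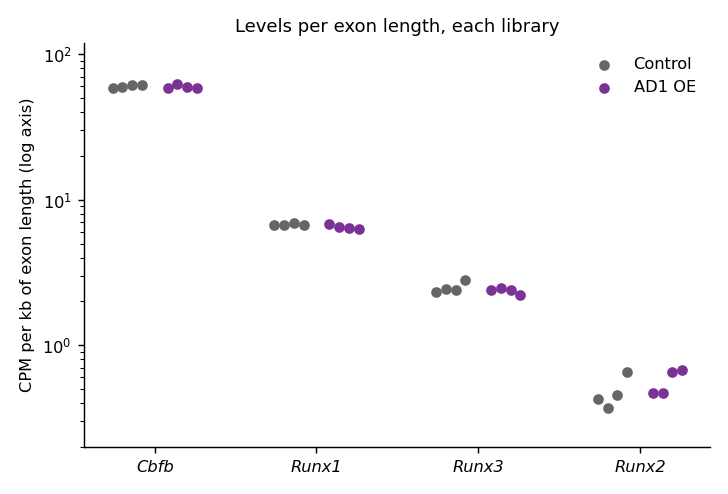
CPM per kilobase of exon of the 4 members in each library on a log axis, with Control in grey and AD1 OE in purple. Cbfb lies at 58.6 to 62.5, Runx1 at 6.33 to 6.89, Runx3 at 2.21 to 2.82 and Runx2 at 0.370 to 0.680, with the groups overlapping in each.

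Of the Runx transcripts per length, Runx1 made up 68.9% ± 1.04 in AD1 OE and 69.6% ± 2.53 in Control, Runx3 25.1% ± 0.912 and 25.5% ± 1.58, and Runx2 6.04% ± 1.30 and 4.89% ± 1.11 (SD, n = 4 each). The balance between nociceptor and proprioceptor determinants was read as the log2 ratio of Runx3 to Runx1 counts, which does not depend on library scaling. It was -2.77, -2.66, -2.69 and -2.78 in AD1 OE and -2.82, -2.73, -2.80 and -2.51 in Control. Control replicate 4 was highest and Control replicates 1 and 3 were lowest, so that all AD1 OE libraries lay within the Control range. The means differed by -0.010 (exact permutation test, two-sided, p = 0.914), and by 0.0568 without Control replicate 4.

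Cbfb exceeded the summed Runx genes per length by 6.34 ± 0.229 times in AD1 OE and by 6.19 ± 0.125 times in Control. As a log2 ratio of Runx to Cbfb this was -2.61, -2.73, -2.64 and -2.67 in AD1 OE and -2.63, -2.64, -2.66 and -2.59 in Control. The lowest ratio was that of AD1 OE replicate 2, the library with the highest Cbfb. The means differed by -0.034 (exact permutation test, two-sided, p = 0.343), and by -0.0520 to -0.0114 without 1 library, the latter without AD1 OE replicate 2. Both ratios were tested, with adjusted values of 0.914 and 0.686, and the smallest p that 70 divisions of the libraries allow is 0.0286.

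Sex was unevenly spread over the groups, so members were also read within the Xist libraries (1 AD1 OE against 3 Control) and within the Y-linked ones (3 against 1), with no test at these numbers. Runx2 and Runx3 differed in sign between them. For Runx2 the log2 ratio of AD1 OE to Control was 0.65 in the Xist libraries and -0.29 in the Y-linked ones. For Runx3 it was 0.02 and -0.26. Runx1 gave -0.08 and -0.04 and Cbfb -0.01 and -0.03. The only Y-linked Control was replicate 4, the highest Control library for Runx2 and Runx3, so both negative values rest on that library. With the sex score in the edgeR fit the adjusted p-values were 0.650 for Runx1, 0.817 for Runx2, 0.522 for Runx3 and 0.882 for Cbfb.

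The high Runx2 libraries were also those with the highest skeletal markers. The 8 bone and cartilage markers (Sp7, Bglap, Ibsp, Alpl, Dmp1, Phex, Col10a1, Col2a1) summed to 140, 103, 219 and 211 CPM in AD1 OE and to 122, 136, 151 and 181 CPM in Control. AD1 OE replicates 3 and 4 and Control replicate 4 held the 3 highest sums, the same 3 libraries in which Runx2 was highest. This order was not particular to skeletal markers, because fibroblast markers also summed highest in these 3 libraries. They reached 6631 and 6410 CPM in AD1 OE replicates 3 and 4 and 6149 CPM in Control replicate 4. Each of the 8 bone and cartilage markers exceeded 3 counts in at least 1 library. The part of skeletal cells or fibroblasts in the Runx2 values was not tested.

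**Figure D3:**
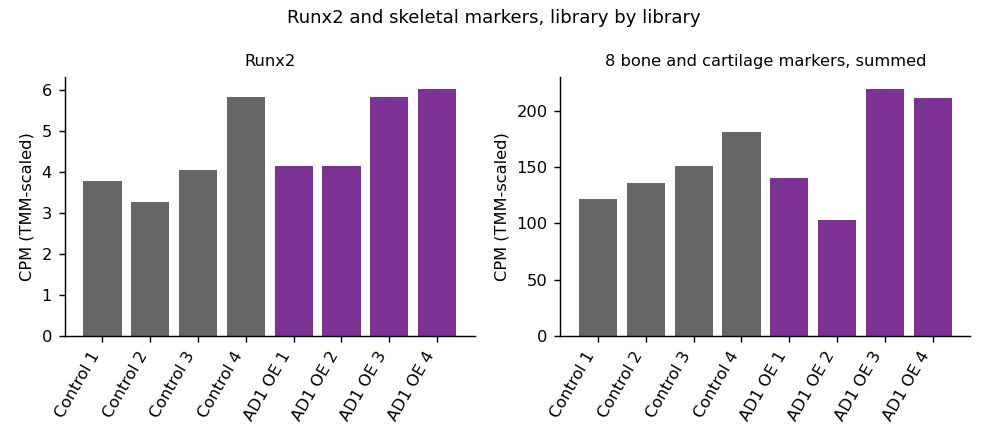
CPM (TMM-scaled) of Runx2 and the summed CPM of 8 bone and cartilage markers in each library, as bars from 0 with Control in grey and AD1 OE in purple. AD1 OE 3, AD1 OE 4 and Control 4 are the 3 highest bars in both panels.

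The neighbourhood of the Runx factors was described with 6 lists of 56 genes, of which 52 were tested. In AD1 OE, 13 of them were lower and 2 higher by the call, a share of 28.8% beside 2.57% of all tested genes. The 13 include Mrgpra3, which passed the expression filter only through its Control libraries. The median log2 fold change over the lists was -0.04, beside 0.002 over all tested genes. Mrgprd, Trpm8, Calca, Mafa, Prdm12, Ntrk2 and Ntrk3 are among the genes that the study itself discusses from these libraries. The lists were also chosen with earlier results of these data known. They are therefore no independent evidence of a direction or of a raised share of calls. All values of listed genes below are CPM and all adjusted p-values come from edgeR's quasi-likelihood test.

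The 8 regulators upstream of Runx1 and Runx3, among them Pou4f1, Isl1 and Prdm12, showed no call. Of the 6 tested, 0 were called by edgeR, 0 by DESeq2 and 0 had an unadjusted p under 0.05. Over all 17721 tested genes these were 2.57%, 655 and 3296. The median log2 fold change of the 6 was 0.01. The lowest p-value belonged to Prdm12, a nociceptor determinant, at 165.8 ± 11.0 against 156.0 ± 7.14 CPM (log2 fold change 0.09, adjusted p = 0.382). The proneural genes Neurog1 and Neurog2 had 0 to 4 counts in any library and were not tested. Pou4f1 and Isl1, the pan-sensory homeodomain factors that act upstream of Runx genes, gave log2 fold changes of 0.001 and 0.02 and are named after their values were seen.

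Among 16 co-regulators, 1 was called lower and 1 higher, a share of 12.5%, with a median log2 fold change of 0.07. Runx1t1, a corepressor named for its fusion with RUNX1 in leukaemia, was at 50.2, 48.0, 44.5 and 45.3 CPM in AD1 OE and at 61.2, 61.8, 62.7 and 62.9 CPM in Control. All AD1 OE libraries lay below all Controls. It fell by 0.40 on the log2 scale, to 75.7% of Control (95% interval 70.6% to 81.1%, adjusted p = 0.000189).

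Tle3, a Groucho-type corepressor that Runx proteins recruit through their C-terminal motif, was at 115.9, 107.8, 120.6 and 108.5 CPM in AD1 OE and at 100.3, 92.3, 91.1 and 92.6 CPM in Control. The groups did not overlap, and Tle3 rose by 0.27 (SE 0.05) on the log2 scale, to 120% of Control, with an adjusted p of 0.00341. The call was lost in 6 of the 8 fits without 1 library, those without AD1 OE replicates 1, 3 or 4 or Control replicates 2, 3 or 4, where the adjusted p reached 0.0165 and the log2 fold change was 0.2457 to 0.2930. Tle5, a short Groucho-type protein (362.7 ± 20.3 against 406.1 ± 11.1 CPM, adjusted p = 0.0671), and Cbfa2t3, a relative of Runx1t1 (19.9 ± 1.74 against 16.6 ± 0.309 CPM, adjusted p = 0.0365), were not called.

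Genes known to require Runx1 in nociceptors were lower for the most part where called, while Runx1 itself was at 96.2% of Control. Of 17 genes 15 were tested, 7 were called lower and 1 higher, a share of 53.3%, and the median log2 fold change was -0.38. The groups did not overlap for 11 of the 15, beside 13.0% of all tested genes. Of these 11, Plxnc1, P2rx3 and Scn11a were higher in AD1 OE and the others lower. The 7 called lower and these 11 include Mrgpra3, which passed the expression filter only through Control. The 7 that were not called spanned -0.47 to 0.21 on the log2 scale.

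Of the 5 listed receptors of the Mrgpr family, many of which mark non-peptidergic neurons, Mrgprd, Mrgprx1 and Mrgpra3 were called lower, and the others were not tested. Mrgprd was at 52.5, 47.9, 44.6 and 59.3 CPM in AD1 OE and at 78.2, 98.7, 83.1 and 88.6 CPM in Control, a decrease to 58.6% of Control (adjusted p = 0.000197). Mrgprx1, a receptor of itch neurons, was at 69.6, 75.7, 63.0 and 87.9 CPM and at 149.4, 181.1, 168.3 and 164.9 CPM, a decrease to 44.6% of Control (adjusted p = 8.73e-06). In both genes every AD1 OE library lay below every Control.

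Mrgpra3, a further itch receptor, had 2, 0, 0 and 1 counts in AD1 OE and 15, 27, 20 and 37 counts in Control. It was at least 7.89-fold lower, with each AD1 OE library set at a floor of 3 counts, and the median of the list was the same with this bound. Only its Control libraries carried Mrgpra3 past the expression filter, so a lower level in AD1 OE was largely fixed by its entry. Its adjusted p of 4.15e-05 by edgeR is therefore no support for a direction. DESeq2 gave no adjusted p for Mrgpra3, and a filter of 1 CPM in 4 libraries left it out. Mrgprb4 (0 to 2 counts) and Mrgprb5 (1 to 5 counts in AD1 OE and 6 to 18 in Control) were not tested. Mrgpr genes resemble each other in sequence, and how the counting divided reads between them is not stated.

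Other Runx1-dependent genes were lower with 1 exception among those called. Trpm8, the cold receptor, was at 16.0, 17.2, 16.3 and 17.8 CPM in AD1 OE and at 33.5, 38.5, 42.5 and 40.2 CPM in Control, a decrease to 43.5% (adjusted p = 2.3e-06). It shares 8.20% of its exon bases with another annotated gene. Gfra2, the co-receptor for neurturin in non-peptidergic neurons, fell to 66.7% (60.5 ± 6.57 against 90.8 ± 4.87 CPM, adjusted p = 0.00023). Tafa4, a secreted protein of C-low-threshold mechanoreceptors, fell to 76.8% (58.1 ± 3.17 against 75.6 ± 3.87 CPM, adjusted p = 0.000628).

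The exception was Plxnc1, a semaphorin receptor of non-peptidergic neurons, at 138.7, 149.6, 125.4 and 147.1 CPM in AD1 OE and at 86.2, 99.9, 92.4 and 103.1 CPM in Control. All 4 AD1 OE libraries were above all Controls, and Plxnc1 rose to 147% of Control (log2 fold change 0.55, SE 0.06, adjusted p = 0.00023). P2rx3, the ATP-gated channel of non-peptidergic neurons, was at 446.3 ± 4.50 against 398.7 ± 23.8 CPM (adjusted p = 0.0642) and the sodium channel gene Scn11a at 679.0 ± 42.9 against 587.5 ± 46.1 CPM (adjusted p = 0.0858), and neither was called. Ret, the signalling receptor of the non-peptidergic lineage and named here after its values were seen, was at 674.9 ± 11.2 against 732.5 ± 40.5 CPM (92.1% of Control, adjusted p = 0.199).

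Of the 5 genes that Runx1 holds back in nociceptors, all tested, 2 were called lower and 0 higher by edgeR, 3 were called by DESeq2, and the median log2 fold change was -0.39. Calca, which encodes the peptide CGRP, was at 294.6, 277.2, 260.6 and 294.6 CPM in AD1 OE and at 453.1, 460.7, 456.7 and 458.6 CPM in Control, 61.6% of Control (adjusted p = 3.58e-06). Tac1, which encodes substance P, was at 69.1, 64.6, 62.0 and 61.4 CPM and at 123.0, 114.9, 109.9 and 125.3 CPM, 54.4% of Control (adjusted p = 1.61e-06). For neither peptide gene did the groups overlap. Calcb, a close copy of Calca, was at 76.1% of Control with an adjusted p of 0.00852 and was called under DESeq2. Oprm1, the mu opioid receptor, was at 6.08 ± 1.18 against 7.22 ± 1.07 CPM (adjusted p = 0.406).

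Of the 6 genes of proprioceptors, the neurons that require Runx3, 1 was called lower and 0 higher, with a median log2 fold change of -0.19. The study also uses the product of Ntrk3 to label low-threshold mechanoreceptors. Spp1, named here after its values were seen, was highest in AD1 OE replicates 3 and 4 and Control replicate 4 (101.6, 121.7 and 82.2 CPM). These libraries also had the highest skeletal marker sums, and the part of other cells in Spp1 was not tested. Etv1, the ETS factor needed for proprioceptive connections, was at 93.2, 104.1, 81.7 and 91.2 CPM in AD1 OE and at 162.9, 179.3, 184.2 and 197.0 CPM in Control. Every AD1 OE library lay below every Control, and the level was 51.1% of Control (adjusted p = 6.39e-06). Ntrk3, which encodes the neurotrophin receptor TrkC, was at 343.3 ± 31.0 against 278.4 ± 17.0 CPM (log2 fold change 0.30, adjusted p = 0.0171), and Whrn, which encodes the scaffold protein whirlin, at 21.2 ± 1.15 against 26.1 ± 0.865 CPM (-0.31, adjusted p = 0.00557). Both missed the threshold of edgeR and were called under DESeq2. The study, with DESeq2 and the same thresholds, reports the gene for TrkC as not deregulated. The reason for this difference was not tested. With the sex score in the edgeR fit, Ntrk3 was at 0.2287 (adjusted p = 0.106) and not called. Whrn was called in that fit, at -0.3563 (adjusted p = 0.00492). Pvalb, the calcium buffer that marks proprioceptors and named here after its values were seen, was at 94.7% of Control (adjusted p = 0.626).

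Of the 4 genes of TrkB neurons and other mechanoreceptors, listed here as a contrast to the Runx3 program, 2 were called lower and 0 higher. Their median log2 fold change was -0.45. Mafa, a transcription factor of low-threshold mechanoreceptors, was at 3.28, 2.41, 4.36 and 2.66 CPM in AD1 OE and at 11.5, 10.9, 8.33 and 8.39 CPM in Control, 32.8% of Control (adjusted p = 0.000125). Shox2, a homeodomain factor of the TrkB neurons, was at 6.35, 7.57, 6.16 and 6.66 CPM and at 11.6, 12.6, 13.2 and 11.0 CPM, 55.1% of Control (adjusted p = 8.16e-05). Neither gene's groups overlapped. Ntrk2, which encodes TrkB and is repressed by Runx3, was at 207.7 ± 10.6 against 191.7 ± 8.95 CPM (adjusted p = 0.189), and Maf was at 97.3% of Control (adjusted p = 0.803).

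**Figure D4:**
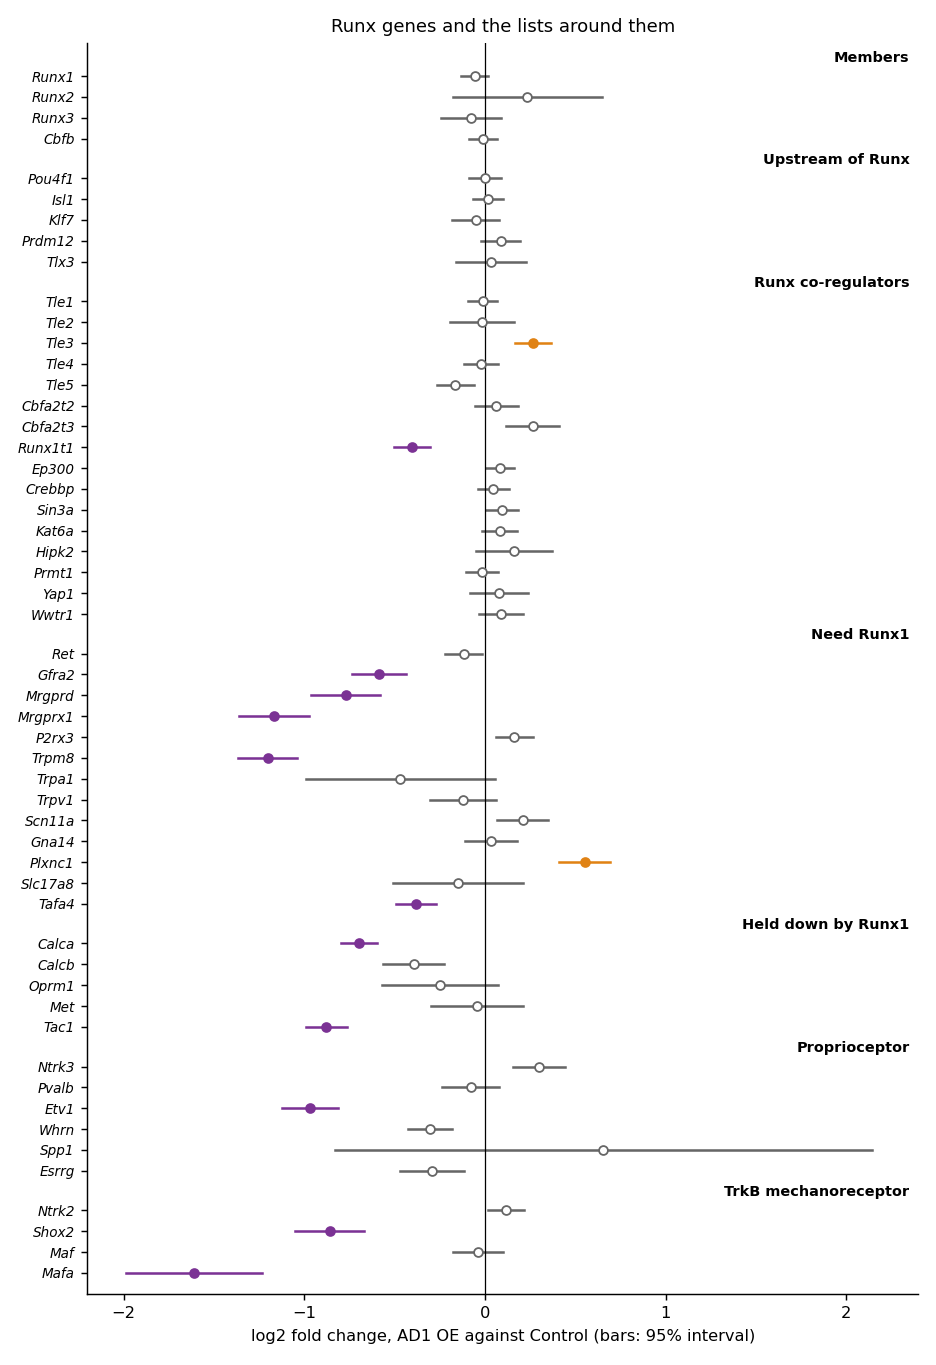
Log2 fold change of AD1 OE against Control with its 95% interval for the 4 members and the tested genes of the 6 lists, other than Mrgpra3, whose AD1 OE libraries are at the floor of 3 counts, and 2 genes not reported here, with genes called lower in purple, called higher in orange and not called as open grey points. The 4 members are open points whose intervals span 0, Plxnc1 and Tle3 are the genes called higher, and the widest interval is that of Spp1, from -0.83 to 2.14.

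The motif shown above was also sought in the promoter windows of the listed genes. Of 56 genes 42 had a window, and 6 of them held ACCACA or TGTGGT, beside 18.9% of all genes with a window. These were Neurog2, Hipk2, Trpv1, Etv1, Spp1 and Ntrk2, of which Etv1 was called.

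Markers of the cell types in and around the ganglion gave 0 calls among 62 tested of 72 by edgeR and 0 by DESeq2, with 12 under an unadjusted p of 0.05, beside 3296 of all 17721 tested genes, and 2 under an adjusted p of 0.05, beside 6.55% of all tested genes. These 2 were Pdgfra, a receptor of fibroblasts (117% of Control, adjusted p = 0.0232 by edgeR), and Lyz2, a lysozyme of macrophages (80.1% of Control, adjusted p = 0.0335), both chosen after their values were seen. Macrophages and lymphoid cells also express Runx1 or Runx3. The 8 macrophage markers summed to 81.1 to 91.3 CPM in AD1 OE and to 88.9 to 96.4 CPM in Control, and the 8 lymphoid and platelet markers to 16.5 to 26.4 and 15.2 to 19.7 CPM. Glial markers summed to 1041 to 1302 and 1077 to 1301 CPM, fibroblast markers to 5858 to 6631 and 5022 to 6149 CPM, and endothelial markers to 306 to 359 and 319 to 328 CPM. Muscle markers reached 616 CPM in AD1 OE replicate 3, in place of at most 354 CPM elsewhere, and spinal cord markers 11.2 CPM in Control replicate 1. Their part in the values of the members was not tested.

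The genes whose log2 CPM followed each member most closely over the 8 libraries were sought among 13944 tested genes of at least 1 CPM. These correlations are descriptions over 8 libraries, in which genes share the depth, genotype and cell makeup of a library. For Runx1 they were Mrm1 (r = 0.973), Mafk (0.947) and Plcl2 (0.947). For Runx3 they were Arhgap27 (0.941), Car11 (0.904) and Sgk1 (0.885), and for Cbfb Tmem243 (0.978), Inpp5f (0.969) and Fgfr1op2 (0.959). Control replicate 4 stood above all other libraries in Runx3, at 14.1 CPM, so the Runx3 correlations lean on that library. Those closest to Runx2 were the clock gene Per3 (0.967), Phex (0.955), an endopeptidase of bone that is also 1 of the 8 skeletal markers, and Zfp710 (0.949). None of these 12 genes was called, and their log2 fold changes ran from -0.10 to 0.57.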

How the data were processed

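Poly(A) RNA of E18.5 DRG was sequenced from stranded libraries. Per the submitters' processing notes and the study's methods, the authors used bcl2fastq 2.20.0.422, aligned reads to GRCm39 with STAR 2.7.8a and counted them with featureCounts 2.0.1, and they deposited raw counts per Ensembl gene and library, unfiltered. The strand setting of the counting is not given in the sources used here, and genes that overlap others or lie antisense to them are uncertain. Reads carry no molecular identifiers.

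Symbols, chromosomes and exon lengths came from GENCODE M21 (GRCm38), which gave symbols for 52081 of the 55414 IDs, with 3 updated through RefSeq, and all 128 listed genes were found. The main test was the quasi-likelihood F test of edgeR 4.0.16 (R 4.3.3; filterByExpr, TMM, no covariate), and DESeq2 1.42.0, the study's tool, was an alternative. The thresholds are those of the study for this comparison. The common biological coefficient of variation was 8.22%. CPM uses TMM-scaled totals, and intervals come from the fit. Like genes were ranked by Pearson's r of log2 CPM (prior count 2), and the ratio of Runx3 to Runx1 used plain counts. With 0.5 added to each count, as an alternative, the difference in this ratio was -0.0103 (exact permutation test, p = 0.943). Tests were checked on simulated counts.

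The members and lists were chosen with earlier results of these data known. Named genes are the members, Dach1 and Avil, every called gene of the 6 lists plus the 2 uncalled genes of lowest p in each, called marker genes and the 3 genes most like each member, of which some are not reported here. The alternatives were DESeq2, RLE size factors, no composition scaling, no expression filter, a filter of 1 CPM in 4 libraries, other thresholds, the replicate number as a block, the sex score (Y-linked genes against Xist) as a covariate, and leaving out each library.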

Additional observations from a re-analysis of the deposited data

Results flagged for a closer look

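Single libraries stood apart from the other 3 of their group, by Dixon's 95% criterion, in 3 of 70 groups examined, where chance flags about 1 in 20. Cbfb in AD1 OE replicate 2 was at 217.5 CPM, with the nearest library at 206.4. Tle3 in Control replicate 1 was at 100.3 CPM, with the nearest at 92.6, on the side of the AD1 OE libraries. Cbfa2t3 in Control replicate 1 was at 17.05 CPM, with the nearest at 16.49.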

How the results depend on the processing

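Called members stayed at 0 under all 17 alternatives, with adjusted p-values of 0.364 to 0.680 for Runx1, 0.191 to 0.818 for Runx2, 0.522 to 0.992 for Runx3 and 0.743 to 0.999 for Cbfb. Without 1 library the log2 fold change ranged from -0.0758 to -0.0371 for Runx1, from 0.1235 to 0.4453 for Runx2 (highest without Control replicate 4) and from -0.106 to -0.0026 for Runx3. That of Cbfb turned sign without composition scaling (0.0092) and ranged from -0.0284 to 0.0055 without 1 library, the difference in the Runx3 to Runx1 ratio ranged from -0.0448 to 0.0568 (highest without Control replicate 4), and Maf from -0.0842 to 0.0065; the cause was not tested. Called genes numbered 455, 747 with no expression filter, 1161 at an adjusted p of 0.05 with no limit on the fold, 129 with a limit of 1, 655 by DESeq2 and 289 to 420 without 1 library (289 without AD1 OE replicate 1). Of the 15 called list genes, 4 passed the limit of 1, where the stricter fold is the reason, and 14 remained called in each of the 8 fits without 1 library, Tle3 excepted. The counts of 15, 4 and 14 all include Mrgpra3, which passed the expression filter only through its Control libraries. Replicate numbers did not pair the libraries (correlations of same-numbered libraries -0.00991, -0.0541, -0.035 and 0.313, each library matching its own number best in 1 of 4). With the number as a block, Runx2 was at 0.2527 (adjusted p = 0.316), 0 members and 14 of the 15 list genes were called (Tle3 was not, at 0.2661 and an adjusted p of 0.00824), and 348 genes in all.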
